A study of Glycine max with 2 samples.

Results

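The expression of 5 genes of cell division was followed through single nuclei of the developing soybean seed. They are 5 of the 56044 genes of the RNA table and were chosen by name: the CYCB2;3 genes Glyma.01G159700, Glyma.04G001100 and Glyma.11G084500, the CDC20.1 gene Glyma.11G012400, and the PAKRP1 gene Glyma.01G012700. All 5 were detected. Nuclei came from pooled cotyledon-stage seeds of the cultivar Williams 82, grown in a greenhouse, and the labels give no treatment or mutation. A Multiome assay gave 1 RNA library and, from the same nuclei, 1 ATAC library, which records accessible chromatin. Since neither was replicated, no group was compared with a control, and no p-value was computed.

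B-type cyclins bind and activate the cyclin-dependent kinases that carry a cell from G2 into mitosis. CDC20 activates the anaphase-promoting complex, the ubiquitin ligase that marks B-type cyclins for destruction so that the cell can leave mitosis. PAKRP1, known from Arabidopsis as a kinesin-12, works at the midline of the phragmoplast, the array of microtubules that builds the new cell wall during cytokinesis. In the cotyledon-stage seed the embryo, the endosperm and the seed coat grow side by side, so the genes can be read in all of them at once.

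The RNA library held 39881831 UMIs (barcoded tags that count RNA molecules once each) from 8636 nuclei, and the median nucleus had 2945.5. All 8636 barcodes also had ATAC fragments, and the median was 7840. Nuclei fell into 23 rebuilt clusters, which carry the study's sn numbers after a match of their expression. Levels are UMIs per 1000000 UMIs of a cluster (CPM). Intervals are at 95%, from the exact binomial (Clopper-Pearson) method for shares and the exact Poisson method for sums of UMIs, and cover counting error only.

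The genes differed in abundance over the whole library. PAKRP1 had 2256 UMIs (56.6 CPM, interval 54.3 to 59.0) in 1648 nuclei, 19.1% of all. Among the cyclin genes, Glyma.01G159700 had 1494 UMIs in 973 nuclei, Glyma.11G084500 had 1286 UMIs in 749 nuclei and Glyma.04G001100 had 507 UMIs in 357 nuclei. CDC20.1 had 1154 UMIs in 552 nuclei, so that it was found in fewer nuclei than Glyma.11G084500 but with more UMIs in each. The fullest single nucleus held 23 UMIs of CDC20.1, against 22 of Glyma.01G159700, 15 of Glyma.11G084500, and 9 each of Glyma.04G001100 and PAKRP1. Of the entries stored for a gene, between 16.8% (PAKRP1) and 29.0% (Glyma.04G001100) were 0, taken here as set to 0 by the authors' background correction.

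The cyclins and CDC20.1 shared their highest level, in cluster sn15. This cluster of 226 nuclei is embryo-like: 7 of 7 embryo markers were enriched in it. None of the markers for endosperm, seed coat epidermis or outer integument were. The marker lists were taken from tables that the study made partly on these nuclei. Marker counts here and below therefore describe the clusters and do not test their identity. Cluster sn15 holds 2.62% of the nuclei and 3.37% of the UMIs, but 30.0% (28.4 to 31.6%) of the UMIs of the cyclins together. Its share was 39.9% (37.0 to 42.8%) for CDC20.1 and 6.21% (5.25 to 7.28%) for PAKRP1. These shares are descriptions, because Glyma.11G084500 and CDC20.1 were among the genes used for clustering. High levels in sn15 were also known beforehand from the study's cluster averages. The clusters were also built without the 5 genes and without a list of other division genes. There sn15 held 29.9% of the cyclin UMIs, 39.8% of the CDC20.1 UMIs and 6.29% of the PAKRP1 UMIs. Many other genes high in sn15 stayed in the counts for that clustering, so it is not a test of these shares.

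CDC20.1 was at 342 CPM (312 to 375) in sn15, against 18.01 CPM (16.7 to 19.4) in all other nuclei, a ratio of 19.0. Glyma.11G084500 was at 345 CPM (314 to 378) in sn15, against 21.3 CPM (19.9 to 22.8) elsewhere, a ratio of 16.2. Glyma.04G001100 was at 136 CPM (117 to 157) in sn15, against 8.41 CPM (7.52 to 9.37) elsewhere, also a ratio of 16.2. The ratio was smaller for Glyma.01G159700, at 8.38, since it was at 251 CPM (225 to 280) in sn15 and 30.0 CPM (28.3 to 31.8) elsewhere. PAKRP1 was at 104 CPM (87.6 to 123) in sn15 and 54.9 CPM (52.6 to 57.3) elsewhere, a ratio of 1.90. Thus 4 of the 5 genes were at least 5 times higher in sn15 than in all other nuclei, as were 441 of the 29737 other genes with at least 100 UMIs (1.48%). The same 4 had their highest level of the 23 clusters in sn15, as did 3.48% of those other genes. The limits of 5 times and 100 UMIs were set after the data were seen.

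In sn15, 71.2% of nuclei held a UMI of Glyma.11G084500, against 6.99% of other nuclei. For CDC20.1 and for Glyma.01G159700 the share in sn15 was 61.5%, against 4.91% of other nuclei for CDC20.1 and 9.92% for Glyma.01G159700. Glyma.04G001100 was in 48.2% of sn15 nuclei, against 2.95% elsewhere. PAKRP1 was in 34.1% of sn15 nuclei, against 18.7% elsewhere. Nuclei of sn15 were deeper, with a median of 4242.5 UMIs against 2907 in the rest. With each nucleus thinned to 500 UMIs, which leaves out 27 shallower nuclei, CDC20.1 was in 19.0% (14.1 to 24.8%) of sn15 nuclei and 0.489% (0.351 to 0.663%) of others. At that depth PAKRP1 was in 3.98% (1.84 to 7.42%) of sn15 nuclei, 9 in all, and 3.05% (2.70 to 3.44%) of others. A difference was not detectable with so few nuclei, whereas the CPM intervals of PAKRP1 given above did not overlap.

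**Figure D1:**
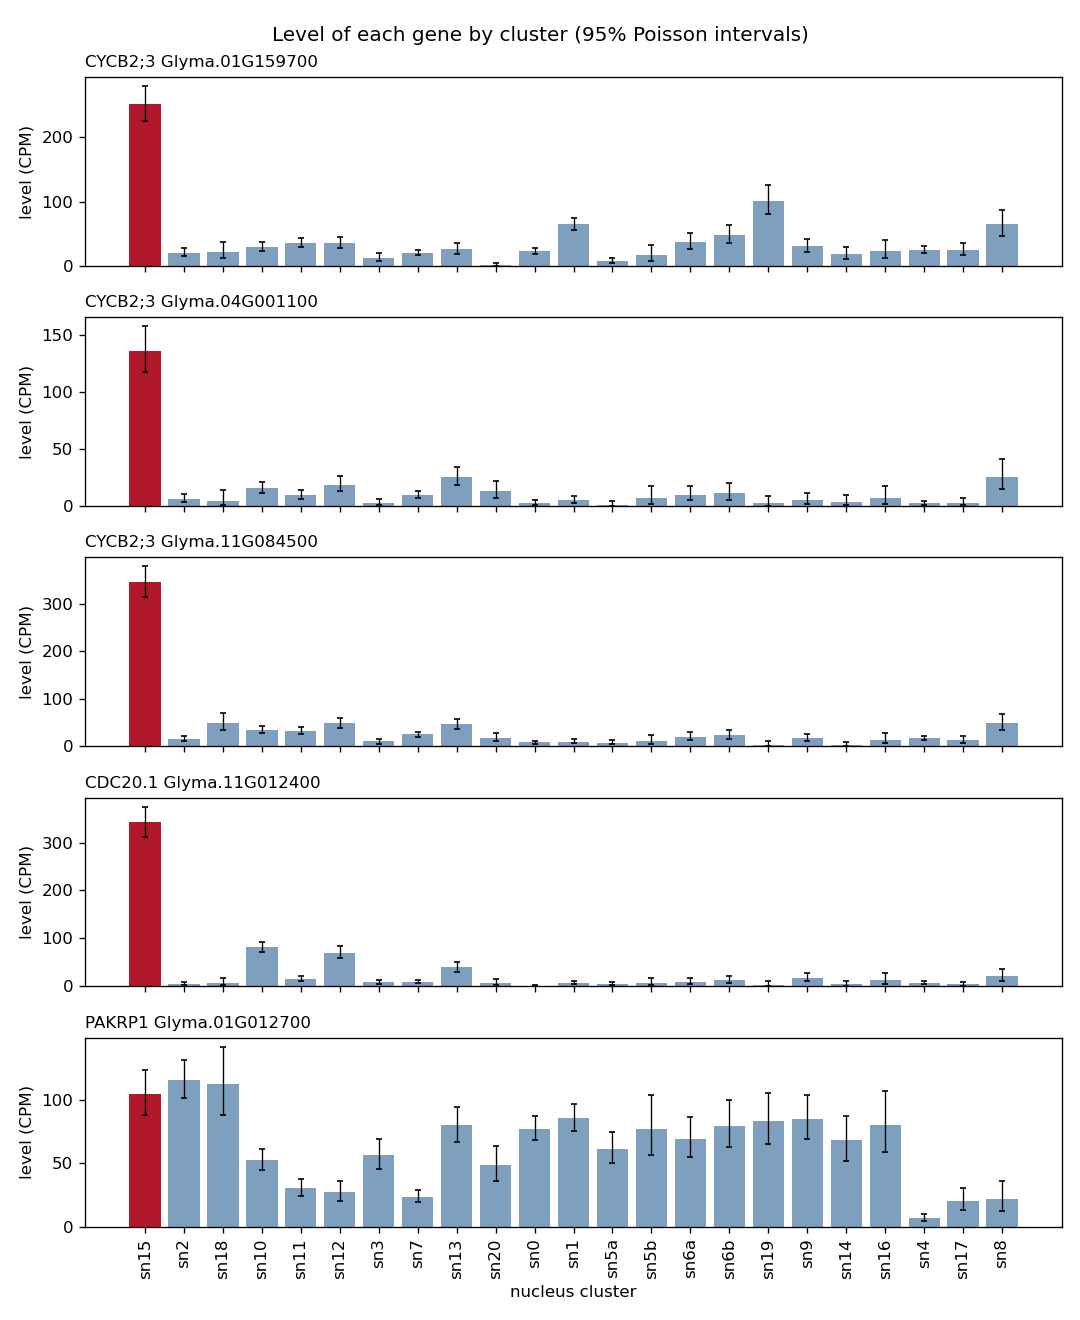
Level of each gene in CPM, in a panel per gene, over the 23 clusters on the horizontal axis, with sn15 in red and 95% Poisson intervals as bars. The cyclins and CDC20.1 peak in sn15 (136 to 345 CPM), whereas PAKRP1 reaches 104 CPM there and 115 CPM in sn2.

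Outside sn15 each gene had its own order of clusters. CDC20.1 was next highest in sn10 at 82.0 CPM (72.0 to 93.0) and in sn12 at 70.0 CPM (58.4 to 83.2), and the intervals of this pair overlap. The study places sn10, sn11 and sn12 in the endosperm. Of 11 endosperm markers, 5 were enriched in sn10, but 1 each in sn11 and sn12. The seed coat clusters sn4 and sn17 also had 1 each. Their summed levels were 1489 and 1424 CPM, against 244 CPM in sn10, 368 CPM in sn11 and 97.3 CPM in sn12. This list therefore does not set the endosperm clusters apart. In sn11 CDC20.1 was at 16.2 CPM (11.8 to 21.7), below sn10 and sn12. The next cluster was sn13 at 39.6 CPM (30.7 to 50.1), which is seed coat epidermis-like by 15 of 15 markers. The lowest value was 0.588 CPM in sn0, where 2 of 768 nuclei (0.260%) held a UMI, at a median depth of 3163 UMIs.

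Glyma.11G084500 stood at 49.0 CPM (33.3 to 69.6) in sn18, 48.7 CPM (39.1 to 59.9) in sn12 and 46.5 CPM (36.9 to 57.9) in sn13, which do not differ beyond counting error. It was lowest in sn14, at 3.39 CPM, and in sn19, at 3.61 CPM, from 3 UMIs each. Glyma.04G001100 was at 25.6 CPM (18.6 to 34.4) in sn13 and 18.6 CPM (12.9 to 26.0) in sn12, and lowest in sn5a at 1.24 CPM. The shallow cluster sn8, which the study assigned to no region and where the median is 1156 UMIs, also stood high for the cyclins together, at 139 CPM (113 to 170).

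Glyma.01G159700 departed from the other cyclins in sn19 and sn1, which the study places in the outer integument. Its second highest level was in sn19, at 101 CPM (80.7 to 125), from 84 UMIs in 172 nuclei. In the same nuclei Glyma.11G084500 had 3 UMIs, Glyma.04G001100 had 2 and CDC20.1 had 3. Outer integument markers were enriched in sn19 in 10 of 15 cases. In sn1, where 3 of 15 were enriched, Glyma.01G159700 had 189 UMIs (64.6 CPM, 55.7 to 74.5) and Glyma.11G084500 had 29 (9.91 CPM, 6.64 to 14.2).

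The split between these CYCB2;3 genes can be read without regard to depth, as the share of Glyma.01G159700 among the UMIs of it and Glyma.11G084500. This share was 42.1% (38.7 to 45.6%) in sn15. It was close to that in sn12 (42.2%), sn10 (46.6%) and sn7 (45.3%), whose intervals include the value of sn15. It was 96.6% (90.3 to 99.3%) in sn19, 86.7% (81.5 to 90.9%) in sn1 and 74.0% (64.5 to 82.1%) in sn0, all outside the interval of sn15. The excess was not confined to these clusters. The share was 84.2% (60.4 to 96.6%) in sn14 and 64.8% (50.6 to 77.3%) in sn9, of the inner integument and endothelium. Intervals also lay above that of sn15 in sn4, sn6a, sn6b and sn17. In sn11 (53.0%), sn2 (57.5%) and sn8 (57.0%) they lay above its value but overlapped its interval. In sn13 and sn18 the share was lower than in sn15, with intervals that include its value. At the other end stood sn20, placed by the study in the seed coat epidermis, with 1 UMI of Glyma.01G159700 and 18 of Glyma.11G084500 (5.26%, 0.133 to 26.0%). All of these genes are annotated to the same Arabidopsis cyclin, and the treatment of reads shared between close copies was not tested.

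**Figure D2:**
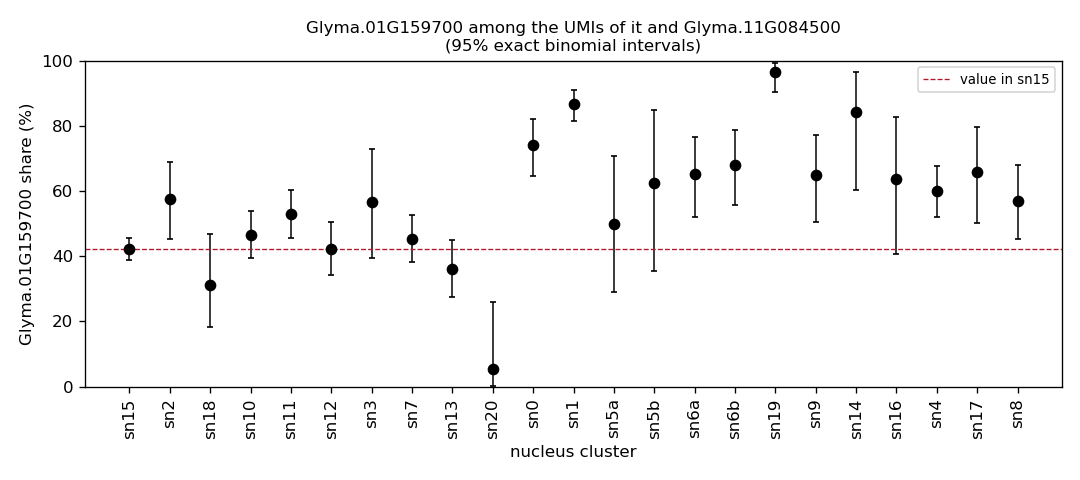
Share in percent of Glyma.01G159700 among the UMIs of it and Glyma.11G084500, by cluster, with 95% exact binomial intervals; the dashed line is the value in sn15. Clusters sn19 (96.6%), sn1 (86.7%), sn14 (84.2%) and sn0 (74.0%) are the highest, above the 42.1% of sn15, and sn20 (5.26%) is the lowest.

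PAKRP1 was spread over the seed. Its levels in sn2 (115 CPM, 101 to 131), sn18 (112 CPM, 87.6 to 142) and sn15 (104 CPM), the embryo-like clusters, overlapped. From sn1 (85.4 CPM) down to sn14 (67.8 CPM), 10 clusters of the seed coat, hilum and integuments followed with overlapping intervals. PAKRP1 was lower in the endosperm clusters sn11 (30.2 CPM, 24.01 to 37.5) and sn12 (27.3 CPM, 20.3 to 36.0). In sn10, also of the endosperm, it stood at 52.4 CPM (44.5 to 61.4). Outside the endosperm it was low in sn7 (23.6 CPM), sn8 (21.5 CPM) and sn17 (20.4 CPM). The lowest level was in sn4, at 6.74 CPM (4.40 to 9.87). CDC20.1 and PAKRP1 therefore took opposite orders in some clusters: CDC20.1 was at 70.0 CPM in sn12 and 4.90 CPM in sn2, and PAKRP1 at 27.3 CPM in sn12 and 115 CPM in sn2. Over the 23 clusters, Spearman's rho was 0.81 between Glyma.11G084500 and CDC20.1, 0.38 between Glyma.11G084500 and Glyma.01G159700, and -0.08 between Glyma.11G084500 and PAKRP1. The clusters share 1 library and differ in depth, so these are descriptions.

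How many of the genes a nucleus held set sn15 apart in the same way. Of its 226 nuclei, 137 (60.6%, 53.9 to 67.03%) held at least 3 of the 5 genes, against 154 of 8410 others (1.83%, 1.56 to 2.14%). All 5 were found in 22 nuclei of sn15, against 15 nuclei outside it, of which 6 lay in sn10. At the other end, 10 nuclei of sn15 (4.42%) held none, against 5589 others (66.5%). Outside sn15, nuclei with at least 3 of the genes made up 10.7% (7.62 to 14.4%) of sn10, 7.44% (4.78 to 10.96%) of sn13 and 5.07% (2.98 to 8.001%) of sn12. In sn2, an embryo-like cluster of 632 nuclei, none did (interval up to 0.582%). Median depth was 6959 UMIs in sn10, 4124 in sn13, 4660 in sn12 and 4242.5 in sn15, against 2574.5 in sn2. More of the genes were found in deeper nuclei, and these shares were not matched for depth. The commonest state with any of the genes was PAKRP1 alone, in 1182 nuclei, of which 2 were in sn15.

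**Figure D3:**
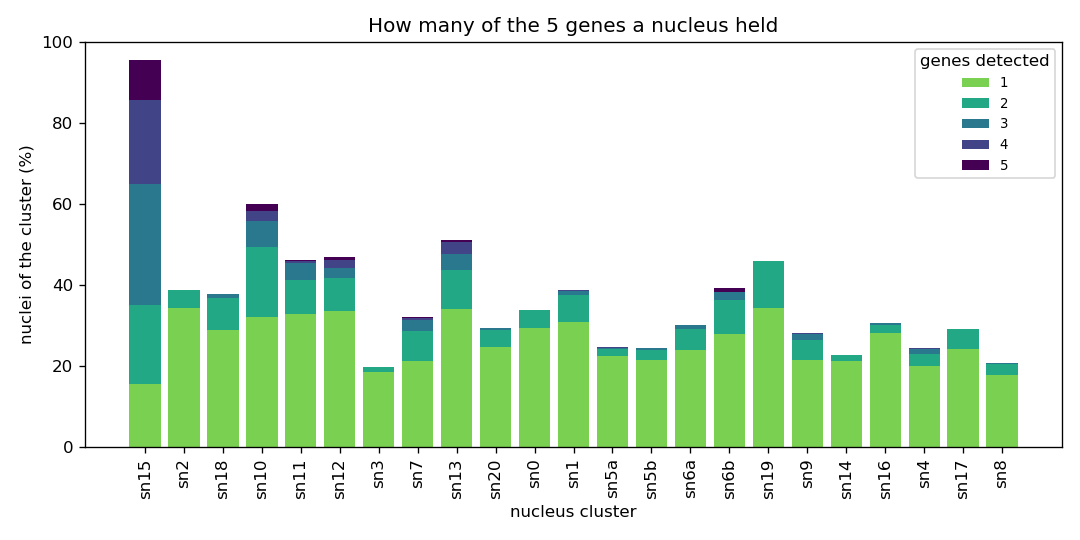
Percent of the nuclei of each cluster in which 1 to 5 of the genes were detected, stacked, with clusters on the horizontal axis. In sn15, 60.6% of nuclei held at least 3, against 10.7% in sn10 and 7.44% in sn13, the next highest. Clusters differ in depth, which was not matched here.

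Nuclei outside the embryo clusters with at least 3 of the genes numbered 152. They were deep, with a median of 10369 UMIs and 27673.5 ATAC fragments, against 2495 UMIs and 6172 fragments in the 5083 nuclei there with none. The doublet score had a median of 0.0660 in them and 0.0303 in those with none, and 17.1% against 4.33% lay among the highest 6% of scores. In sn15 the median score was 0.0495 and 14.6% of nuclei lay among the highest 6%, against 0.0223 and 3.89% in the embryo-like clusters sn2 and sn18. These scores come from Scrublet, whose automatic call marked no doublet and was therefore not relied on, so they are given as values only. The summed level of the 7 embryo markers was 80.3 CPM (69.1 to 92.8) in these 152 nuclei and 83.8 CPM (79.6 to 88.1) in those with none, against 1985 CPM in sn15. A UMI of these markers was in 30.9% (23.7 to 38.9%) of the 152 nuclei and 19.2% (18.1 to 20.3%) of those with none. These shares were not matched for depth. The part of doublets of any origin, embryo included, was not tested.

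Detection in the same nucleus was next compared directly. A nucleus with at least 1 UMI of any of the CYCB2;3 genes is called a cyclin B nucleus here; there were 1629 (18.9%), 204 of them in sn15. Among nuclei with Glyma.01G159700, 30.0% (27.1 to 33.0%) also held Glyma.04G001100 or Glyma.11G084500, against 8.56% of nuclei without it. CDC20.1 was in 20.0% (18.1 to 22.0%) of cyclin B nuclei and 3.23% of other nuclei. PAKRP1 was in 25.7% (23.6 to 27.9%) of cyclin B nuclei and 17.6% of others. Cyclin B nuclei were also deeper, with a median of 4760 UMIs against 2681, so depth moves with each of these shares.

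Bands of like depth outside sn15, chosen after the data were seen, separated the genes. In nuclei of 3000 to 6000 UMIs, CDC20.1 was in 8.02% (5.74 to 10.8%) of cyclin B nuclei and 3.07% (2.35 to 3.93%) of others. In nuclei of 6000 to 12000 UMIs it was in 23.9% (19.4 to 28.8%) and 9.15% (7.27 to 11.3%). In the same deeper band, 42.6% (30.7 to 55.2%) of nuclei with Glyma.04G001100 held Glyma.11G084500, against 11.2% (9.40 to 13.2%) of nuclei without it. At 3000 to 6000 UMIs these shares were 18.8% (10.4 to 30.1%) and 7.24% (6.23 to 8.36%). Among nuclei with Glyma.01G159700, 22.4% (16.8 to 28.8%) held Glyma.11G084500 at 6000 to 12000 UMIs, against 11.1% (9.18 to 13.2%) of the rest. The intervals of this pair overlapped in the other bands, at 11.6% (8.10 to 16.03%) and 7.05% (6.01 to 8.22%) with 3000 to 6000 UMIs, and at 5.24% (2.64 to 9.18%) and 3.10% (2.57 to 3.71%) with 1000 to 3000 UMIs. PAKRP1 was in 20.9% (17.3 to 24.8%) of cyclin B nuclei and 21.9% (20.07 to 23.8%) of others at 3000 to 6000 UMIs, and in 34.3% (29.3 to 39.7%) and 30.7% (27.6 to 33.9%) at 6000 to 12000 UMIs. Its intervals overlapped in each band.

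**Figure D4:**
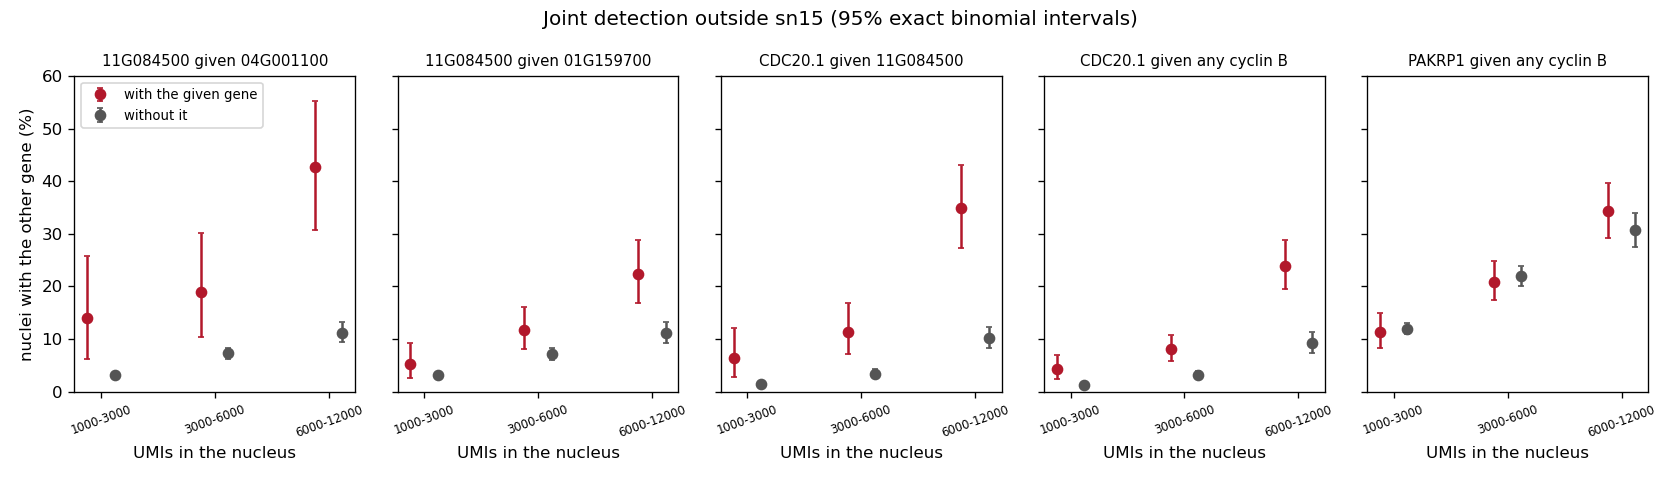
Percent of nuclei outside sn15 that held a second gene, among nuclei with a given gene (red) and without it (grey), in 3 bands of UMIs per nucleus, with 95% exact binomial intervals. CDC20.1 lies higher in cyclin B nuclei (23.9% against 9.15% at 6000 to 12000 UMIs), while the intervals for PAKRP1 overlap.

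Joint detection was also summarised as odds ratios taken within each cluster and each of 5 equal groups of depth in it, also chosen after the data were seen. Outside sn15 the ratio was 3.48 for Glyma.04G001100 with Glyma.11G084500, 3.27 for Glyma.04G001100 with CDC20.1 and 3.08 for Glyma.11G084500 with CDC20.1. It was 2.10 for Glyma.01G159700 with Glyma.11G084500 and 2.40 with CDC20.1. For PAKRP1 it was 0.99 with Glyma.11G084500, 1.09 with CDC20.1, 1.18 with Glyma.01G159700 and 1.23 with Glyma.04G001100. Inside sn15 the ratios among the cyclins and CDC20.1 were lower, at 1.44 to 1.70. There PAKRP1 lay in that range with Glyma.01G159700 (1.64) and CDC20.1 (1.62), and stood at 1.03 with Glyma.11G084500 and 0.95 with Glyma.04G001100. Nuclei were not treated as replicates, so no error is given for these ratios.

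Single clusters showed where cyclin and CDC20.1 met. In sn13, CDC20.1 was in 35.4% (25.001 to 47.0%) of 79 cyclin B nuclei and 4.78% (2.41 to 8.40%) of the other 230, at median depths of 4536 and 3819.5 UMIs. In sn10 it was in 48.3% (39.0 to 57.7%) of 118 cyclin B nuclei and 20.5% (15.5 to 26.3%) of the rest, at 9599.5 and 6430 UMIs. In sn12 it was in 32.0% (23.02 to 42.1%) of 100 and 12.8% (8.78 to 17.7%) of the rest. In sn0, where 87 nuclei held a CYCB2;3 UMI, CDC20.1 was in 0 of them (interval up to 4.15%). It was in 0.294% of the other 681, so too few nuclei held it there for a comparison. In sn19, 3 of 48 cyclin B nuclei held it (6.25%, 1.31 to 17.2%), against 0 of the other 124 (interval up to 2.93%). In sn6b, which the study also places in the outer integument, it was in 17.8% (8.002 to 32.1%) of 45 cyclin B nuclei. Of the other 164 there, 0.610% (0.0154 to 3.35%) held it. In sn1 these shares were 6.34% (2.94 to 11.7%) and 1.06% (0.391 to 2.30%). In sn5b it was in 0 of 17 cyclin B nuclei and 2.16% of the rest. Cyclin B nuclei were deeper in each of these outer integument clusters.

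Other genes were set against cyclin B nuclei by the ratio of mean counts per 10000 UMIs. Genes entered the screen by detection in cyclin B nuclei alone, which favours genes high there. Counts of higher and lower genes therefore cannot be set against each other. Of 22251 genes found in at least 5% of cyclin B nuclei, 362 (1.63%) were at least 2 times higher in them than in other nuclei and 3 (0.0135%) were at least 2 times lower; outside sn15 it was 200 of 22331 (0.896%) that were higher. Of 10 other genes of mitosis and cytokinesis taken from the study's lists, 6 passed the 5% limit and 1 was called higher, with a median ratio of 0.85 against 1.00 over all genes tested. The gene called was Glyma.01G021200, annotated as a kinesin and named here after its value was seen, at 0.737 per 10000 in cyclin B nuclei and 0.144 in others (ratio 5.12, and 3.23 outside sn15). The pair with the most UMIs in cyclin B nuclei went the other way: Glyma.14G019200, also a kinesin, had a ratio of 0.65, and Glyma.16G204300, for MAP65-3, which bundles microtubules in the phragmoplast, a ratio of 0.77. Both had their highest level in sn5a, at 902 and 484 CPM. That cluster had the lowest level of the cyclins together, at 16.1 CPM. The ratios pool all clusters and were not matched for cluster. The rest that passed were Glyma.02G050400 (ratio 1.62), Glyma.07G086500 (0.86) and Glyma.01G054100 (0.84). Below the limit, the kinesin gene Glyma.01G084400, in 4.17% of cyclin B nuclei, had a ratio of 4.11. Glyma.10G149500 (ATK4), in 0.921% of them, had a ratio of 0.82.

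Of 9 genes of G1 and S phase, 4 passed the 5% limit and none was called higher or lower, with a median ratio of 1.15. HTA1 (Glyma.01G022100), for histone H2A, had a ratio of 0.91. A D-type cyclin gene (Glyma.01G024700, CYCD4;1), of the class that acts at entry into the cycle, had a ratio of 1.28. Both lists were chosen with earlier results of these data known.

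Across the 8609 nuclei with at least 500 UMIs, the genes most like the summed cyclins were ranked by Pearson's r of log counts per 10000, among 32567 genes in at least 50 nuclei. The 10 leading genes had r between 0.34 and 0.38, against a median of 0.01 over all ranked genes. All 10 had their highest level in sn15, as did 3.48% of other genes with at least 100 UMIs. The ranking itself favours such genes, since sn15 held 30.0% of the cyclin UMIs. Within sn15 the r of the 10 genes was between 0.29 and 0.48. The first pair was Glyma.10G045500 and Glyma.08G021700, at 568 and 1931 CPM in sn15 against 34.7 and 138 CPM elsewhere. Outside sn15 their r was 0.20 and 0.21. CDC20.1 had r = 0.33 and came 14th when it was ranked with these genes, while PAKRP1 had r = 0.02 and came 6215th. The nuclei share a library and differ in depth, and no p is given.

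The ATAC library offered a second readout of the same nuclei. Cyclin B nuclei had a median of 11252 fragments (quartiles 4298 and 25718), against 7311 (2585 and 14220) in other nuclei, a ratio of 1.54. Their RNA depth moved with this. Against nuclei of the same cluster and the same depth group, the median ratio was 1.02 (quartiles 0.514 and 1.61), so that the difference was not seen at like depth. For PAKRP1 nuclei the ratio of medians was 1.91 (13201.5 against 6902.5 fragments), and 1.15 (quartiles 0.667 and 1.72) at like depth. The share of fragments in peaks had a median of 81.8% in cyclin B nuclei and 84.6% in others, and the share under 150 bases was 57.0% and 57.5%. Neither share was matched for depth, and cyclin B nuclei were deeper.

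**Figure D5:**
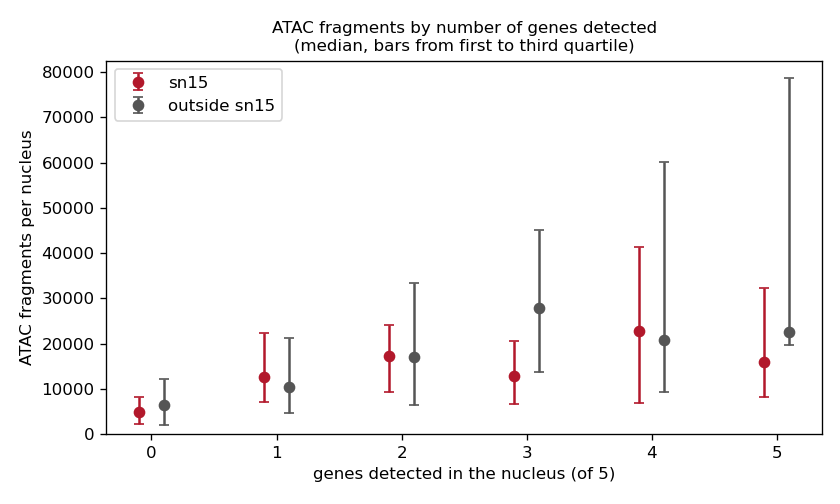
ATAC fragments per nucleus by the number of the 5 genes detected, in sn15 (red) and outside it (grey); points are medians and bars run from the first to the third quartile. Outside sn15 the median is 27902 with 3 genes and 6413 with none, and median RNA depth in these nuclei is 9986.5 and 2473 UMIs.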

How the data were processed

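Nuclei of pooled seeds gave 1 RNA and 1 ATAC library. Per the labels the authors used bcl2fastq 2.20.0.422, Cell Ranger ARC 1.0 and Seurat 4.1.1, and background RNA was removed with SoupX. What the authors deposited for RNA are corrected UMI counts in whole numbers; of 30571536 stored entries 18.2% are 0. Deposited ATAC fragments carry counts of read pairs, and 90.3% had the barcode of a nucleus; the peak file holds intervals only.

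Clusters were rebuilt in Seurat 5.3.0 under R 4.3.3 (sctransform 0.4.2, 30 principal components, resolution 1) and matched to the study's clusters over 503 genes without the division genes. Scrublet in scanpy 1.11.5 called 0 doublets and is taken not to have worked. The other steps used Python 3.11.15. The members, gene lists and tests were chosen with earlier results of these data known. The text names the 5 genes, the pair with the most UMIs in cyclin B nuclei from each list, and the first pair of the 10 genes most like the cyclins. Further genes of the mitosis and cytokinesis list were named after their values were seen. No sequence is shown, as the reference table used here could not be matched to the gene IDs.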

Additional observations from a re-analysis of the deposited data

How the results depend on the processing

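No paired analysis was possible because there is 1 RNA and 1 ATAC library and no result comes from a test between groups. Of 48 alternatives, 25 kept their value within its counting interval or set limit, among them all of those for the shares of cyclin, CDC20.1 and PAKRP1 UMIs in sn15; 21 moved and 2, both for PAKRP1 in cyclin B nuclei, reversed. Those without the highest doublet scores rest on a caller taken not to have worked. Below, the first share is in nuclei with the cyclin and the second in nuclei without it. With nuclei thinned to 500 UMIs the cyclin pairs stood at 8.59% and 2.10%, CDC20.1 at 6.76% and 0.738%, and PAKRP1 at 2.65% and 3.10%, so that the order for PAKRP1 reversed. With at least 2 UMIs CDC20.1 stood at 23.4% and 0.970%, and PAKRP1 at 12.9% and 4.21%. Counting every stored entry gave 36.3% for the cyclin pairs and 34.6% for PAKRP1. Inside sn15 the cyclin pairs stood at 87.8% and 74.7%, CDC20.1 at 63.2% and 45.5%, and PAKRP1 at 35.3% and 22.7%. There, 22 nuclei lacked a UMI of any CYCB2;3 gene. Outside sn15 the pairs stood at 20.4% and 7.80%, and CDC20.1 at 13.8% and 3.09%. In nuclei outside sn15 of 3000 to 6000 UMIs, an alternative added after the data were seen, the pairs stood at 14.9% and 9.23%, CDC20.1 at 8.02% and 3.07%, and PAKRP1 at 20.9% and 21.9%, again reversed.

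The count of genes higher in cyclin B nuclei was 807 at 1.5 times, 182 at 3 times, 762 with genes in at least 1% of nuclei and 200 outside sn15. The 6608 inside sn15 rest on 22 nuclei without a CYCB2;3 UMI. The ratio of ATAC fragments was 2.27 inside sn15, 2.23 with at least 2 cyclin UMIs, and 1.02 when matched by cluster and RNA depth. A ratio within 10% of the reported one was taken as kept. The depth of single nuclei limits each share of detection, and 1 library leaves the spread between seeds unmeasured.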
